A study of Mus musculus with 26 samples.

Results

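A set of 7 genes of the oxysterol and cholesterol efflux pathway (Ch25h, Cyp7b1, Nr1h3, Abca1, Abcg1, Apoe, and Lpl) were described in RNA of the left lung from mice that breathed ozone (O3) or filtered air. The genes were chosen by name, with earlier results of the same arrays in view, and are 7 of 12394 genes that the array measured with a probe set of 1 gene symbol. Each gene was read from its probe set with the highest mean over all arrays. Values are on the log2 scale of the deposited table, so that a difference of 1 is a 2-fold difference, and levels were not set against each other between genes.

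The study asked how interleukin-10 (IL-10), a cytokine that restrains inflammation, shapes the lung response to O3. Male mice 6-8 weeks of age were either C57BL/6 animals that carry both copies of the gene (Il10+/+) or B6.129P2-Il10tmlCgn/J animals (Il10-/-), which carry a germline deletion moved from another strain onto the C57BL/6 background. In each genotype 3 groups received 0.3 ppm O3 for 23.5 hr per day and were sampled at 24, 48, or 72 hr. Filtered-air mice were sampled at 24 and 48 hr, with 2 arrays at each time, and the 4 air arrays of a genotype formed 1 group. Every O3 group held 3 arrays, apart from Il10-/- at 24 hr, where 2 were used. All Il10-/- cells lack IL-10 from birth, and whether an array held 1 mouse or a pool is not given in the sources used here, so the p-values measure the spread between these arrays. The O3 groups of a genotype share their 4 air arrays, and their comparisons are therefore not independent of each other.

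Some arrays stood apart or went against their labels. Il10-/- O3 24 hr replicate 2 was left out of the 25 arrays used here by a rule fixed for this description, not by a cut on correlation. Its highest Pearson r with any other array was 0.879 (over all probe sets). The 2 arrays left in that group, replicates 1 and 3, had an r of 0.965 with each other, the lowest within any group. The probe set of Il10 read 3.92-4.25 in Il10+/+ mice and 6.29-7.71 in Il10-/- mice, except on the array labelled Il10-/- air 48 hr replicate 1, where it read 3.87. Since the sources used here do not place this probe set within Il10, it does not test the deletion. The label was kept, and results that turn on this array are given with and without it. Lung markers were high on every array, with 14.29-14.48 for Sftpc of alveolar type 2 cells and 14.08-14.40 for Scgb1a1 of club cells.

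Cells carry cholesterol to oxysterols and out to lipoproteins in linked steps. CH25H, an enzyme that interferons and inflammatory stimuli induce in macrophages, adds a hydroxyl group to cholesterol to make 25-hydroxycholesterol, and CYP7B1 removes this product by adding another. Oxysterols hold back cholesterol synthesis and activate the liver X receptors, among them LXRα encoded by Nr1h3. These receptors drive transcription of the exporters Abca1 and Abcg1, the apolipoprotein Apoe, and the lipase Lpl. In the lung this traffic is best known from alveolar macrophages, which clear surfactant lipid.

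Promoter windows from RefSeq (GRCm38.p6) were found for 4 of the 7 genes, Ch25h, Abca1, Nr1h3, and Apoe. The sequence before the start of Ch25h is shown because this gene rose most with O3. A short stretch before an inner RefSeq start of Abca1 is shown because this gene is the textbook LXR target. Capitals mark TGACGTCA, the cAMP response element, in Ch25h (chr19:34475149-34475398, minus strand). In Abca1 (chr4:53159941-53159970, minus strand) they mark the reverse complement of GGTTA and CGGTCA with 4 bases between them, a spaced pair of half-sites of the kind that LXR binds.
Ch25h: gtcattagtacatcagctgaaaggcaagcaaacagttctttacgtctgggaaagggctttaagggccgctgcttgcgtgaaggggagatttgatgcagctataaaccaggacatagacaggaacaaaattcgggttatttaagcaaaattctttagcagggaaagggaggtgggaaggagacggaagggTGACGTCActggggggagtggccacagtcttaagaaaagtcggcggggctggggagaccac
Abca1: acagcgttTGACCGGTAGTAACCccggcgc
In Ch25h the capitals lie at bases -61 to -54 and in Abca1 at -67 to -53, counted from the start used for the window. For Abca1 this is not the outermost start of the gene, which lies farther upstream. TGACGTCA, which reads the same on both strands, was found in 1.55% of 32851 windows of 250 bases, and the Abca1 pair, searched on both strands, in 0.0122%. A pair of AGGTCA repeats with 4 bases between them, the textbook LXR element, were found in 0.0152% of windows and in none of the windows of these 4 genes. The letters TATAAA were found in the windows of Ch25h, Abca1, and Apoe and in 12.4% of all windows. The motifs were spelled after the windows had been read, and a match is a description of the letters, not a measured binding site.

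Ch25h, the 25-hydroxycholesterol synthase, was higher on every O3 array than on every air array of its genotype, at each time. In Il10+/+ air its log2 values were 6.60 and 6.84 at 24 hr and 6.49 and 6.41 at 48 hr. After O3 they were 7.69, 7.68, and 7.64 at 24 hr, 8.10, 8.31, and 7.75 at 48 hr, and 7.47, 7.61, and 7.69 at 72 hr. Every 48 hr array lay above every 24 and 72 hr array, but the 48 hr level was only 0.39 above that of 24 hr (SE 0.29, adjusted p = 0.707). Il10-/- air gave values of 5.95, 6.40, 6.06, and 6.32. After O3 they were 8.76 and 7.94 at 24 hr, 7.26, 8.33, and 8.23 at 48 hr, and 7.26, 7.40, and 8.61 at 72 hr. The Il10-/- O3 arrays were more widely spread than those of Il10+/+ mice (SD of 0.58-0.74 against 0.03-0.28 within a time), and their 3 times overlapped. The group means ran from 8.35 (Il10-/- at 24 hr) through 8.06 (Il10+/+ at 48 hr), 7.94 (Il10-/- at 48 hr), 7.76 (Il10-/- at 72 hr), 7.67 (Il10+/+ at 24 hr), and 7.59 (Il10+/+ at 72 hr) to 6.58 in Il10+/+ and 6.18 in Il10-/- air. Neighbours in this order overlapped up to Il10+/+ at 72 hr, which stood clear of both air groups. The lowest Il10+/+ air array lay just above the highest Il10-/- air array.

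**Figure D1:**
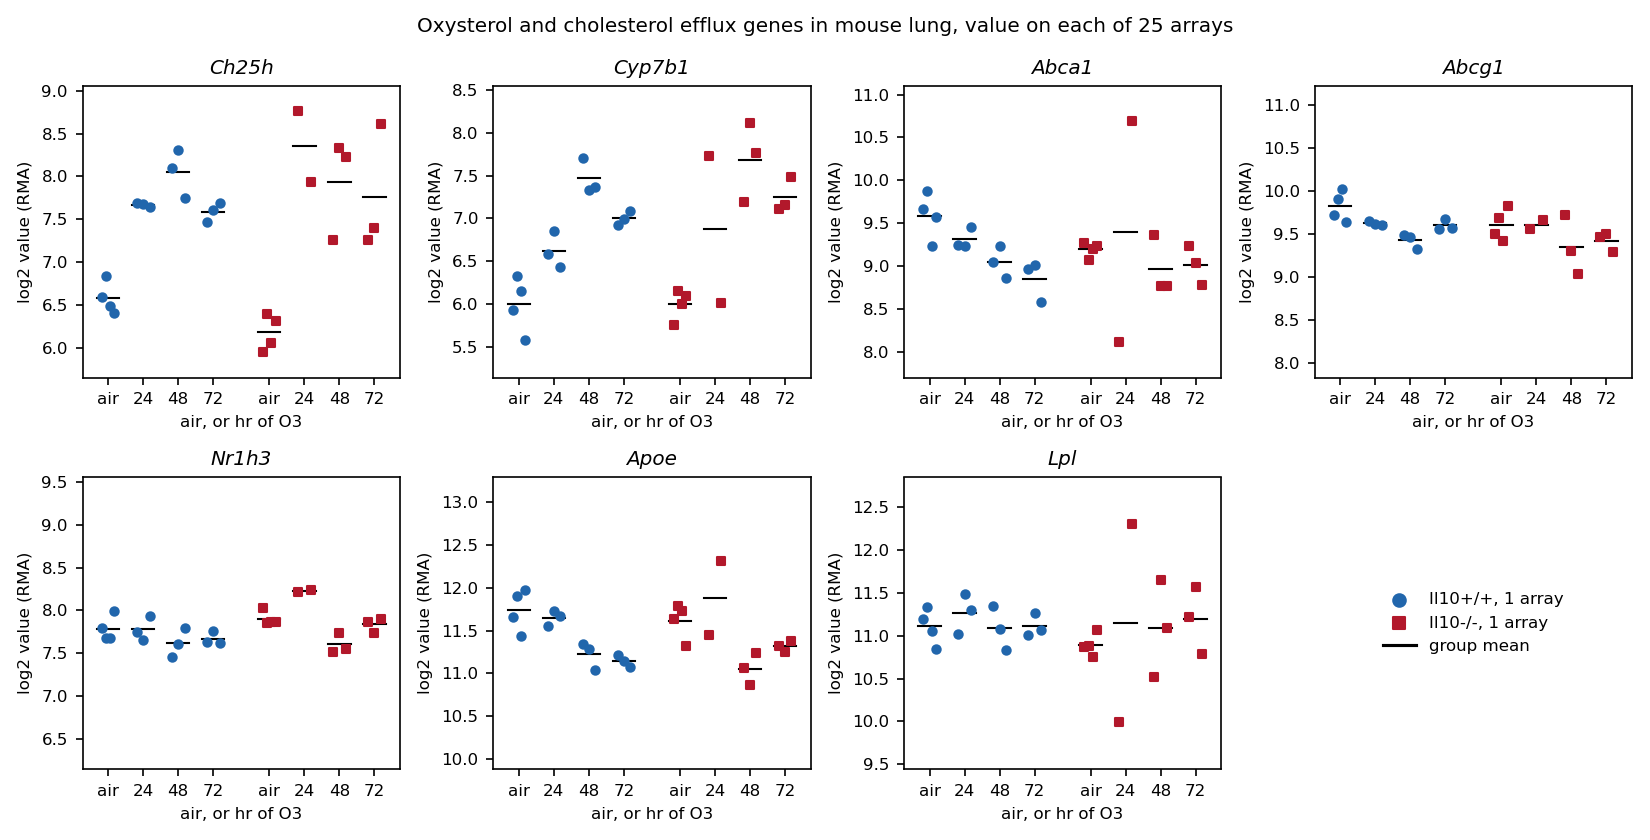
Log2 value on each of 25 arrays (points) and group mean (line) for 7 genes in air and after 24, 48, and 72 hr of O3, with 1 panel per gene and the same span of 3.4 log2 units in each panel. Ch25h lies higher after O3 in both genotypes at each time, Apoe lies lower at 48 and 72 hr, and the 2 Il10-/- arrays at 24 hr lie far apart for Abca1, Lpl, and Cyp7b1.

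As the genes were chosen with these contrasts known, their changes from air are given as a description of size. Ch25h was 1.09 higher (SE 0.27) at 24 hr in Il10+/+ mice, which did not pass an adjusted p of 0.05 over all genes (limma, adjusted p = 0.266). It was 1.47 higher at 48 hr (2.77-fold, adjusted p = 0.00248) and 1.00 higher at 72 hr (2.01-fold, adjusted p = 0.0443). Among Il10-/- mice it was 2.17 higher at 24 hr (SE 0.31, 4.51-fold, adjusted p = 0.000577), 1.76 higher at 48 hr (3.38-fold, adjusted p = 0.000232), and 1.58 higher at 72 hr (2.98-fold, adjusted p = 0.00087). Without the array labelled Il10-/- air 48 hr replicate 1 these 3 changes were 2.13, 1.72, and 1.53, and each passed. The 24 hr call was lost with array weights or with only the arrays compared (adjusted p up to 0.203), settings under which the 24 hr change in Il10+/+ mice passed (adjusted p = 0.0269 and adjusted p = 0.0148). The 72 hr change in Il10+/+ mice lay close to the threshold, with an adjusted p of 0.0529 without that array and of 0.41 with all 26 arrays.

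The array left out read 6.62 for Ch25h, above all 4 Il10-/- air arrays. With it, the change at 24 hr in Il10-/- mice was 1.60 (adjusted p = 0.0209), and the Il10+/+ change at 48 hr no longer passed (adjusted p = 0.128), as the spread is estimated over all groups. The change at 72 hr in Il10-/- mice did not pass either (adjusted p = 0.0592), while that at 48 hr did (adjusted p = 0.0266).

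Cyp7b1, the hydroxylase that clears 25-hydroxycholesterol, was higher than air from 48 hr on in both genotypes. Its Il10+/+ air values were 5.93, 6.33, 6.15, and 5.58, and its O3 values were 6.59, 6.86, and 6.43 at 24 hr, 7.71, 7.33, and 7.37 at 48 hr, and 6.92, 6.99, and 7.09 at 72 hr. No O3 array overlapped the air arrays in Il10+/+ mice. Il10-/- mice in air gave 5.76, 6.16, 6.00, and 6.10, and O3 gave 7.19, 8.11, and 7.76 at 48 hr and 7.11, 7.16, and 7.48 at 72 hr. At 24 hr 1 Il10-/- array read 7.73 and the other 6.02, within the range of air, while the array left out read 5.74. By group mean the order was Il10-/- at 48 hr (7.69), Il10+/+ at 48 hr (7.47), Il10-/- at 72 hr (7.25), Il10+/+ at 72 hr (arrays at 6.92-7.09), Il10-/- at 24 hr (6.87), Il10+/+ at 24 hr (6.63), and air (6.01 in Il10-/- and 6.00 in Il10+/+). Of these neighbours the 72 hr groups of the genotypes did not overlap, nor did Il10+/+ at 24 hr and Il10-/- air.

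At 24 hr the change of Cyp7b1 was 0.63 for Il10+/+ (SE 0.27, adjusted p = 0.813) and 0.86 for Il10-/- mice (SE 0.31, adjusted p = 0.145). The latter was 1.72 without replicate 3 (adjusted p = 0.000137) and 0.01 without replicate 1 (adjusted p = 0.989). The change was largest at 48 hr in both genotypes, 1.47 in Il10+/+ (2.77-fold, adjusted p = 0.0025) and 1.68 in Il10-/- mice (adjusted p = 0.000385). At 72 hr it was 1.00 in Il10+/+ (adjusted p = 0.0456) and 1.24 in the Il10-/- group (adjusted p = 0.00827). The former was lost without the array labelled Il10-/- air 48 hr replicate 1 (adjusted p = 0.0559) and the latter without Il10-/- O3 72 hr replicate 3. With all 26 arrays, the 48 hr change in Il10+/+ mice (adjusted p = 0.0813) and the 72 hr change in Il10-/- mice (adjusted p = 0.0815) did not pass. From 24 to 48 hr of O3 the level was 0.84 higher in Il10+/+ (SE 0.29, adjusted p = 0.272) and 0.81 higher in Il10-/- mice (SE 0.33, adjusted p = 0.172), neither past the threshold. Its other probe set changed by 1.64 at 48 hr in Il10+/+ mice and by 2.04 at 48 hr in Il10-/- mice.

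Read against all genes tested, Ch25h and Cyp7b1 were among 2.71% of genes called higher at 48 hr and 2.47% at 72 hr in Il10+/+ mice, against 0.0484% at 24 hr, when neither was called. For Il10-/- mice 1.32% of genes were called higher at 24 hr, 4.04% at 48 hr, and 4.25% at 72 hr. Ch25h alone of the 7 genes was called higher at 24 hr there, and it and Cyp7b1 at 48 and 72 hr. Because the genes were picked with these contrasts in view, nothing is read from their count.

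**Figure D2:**
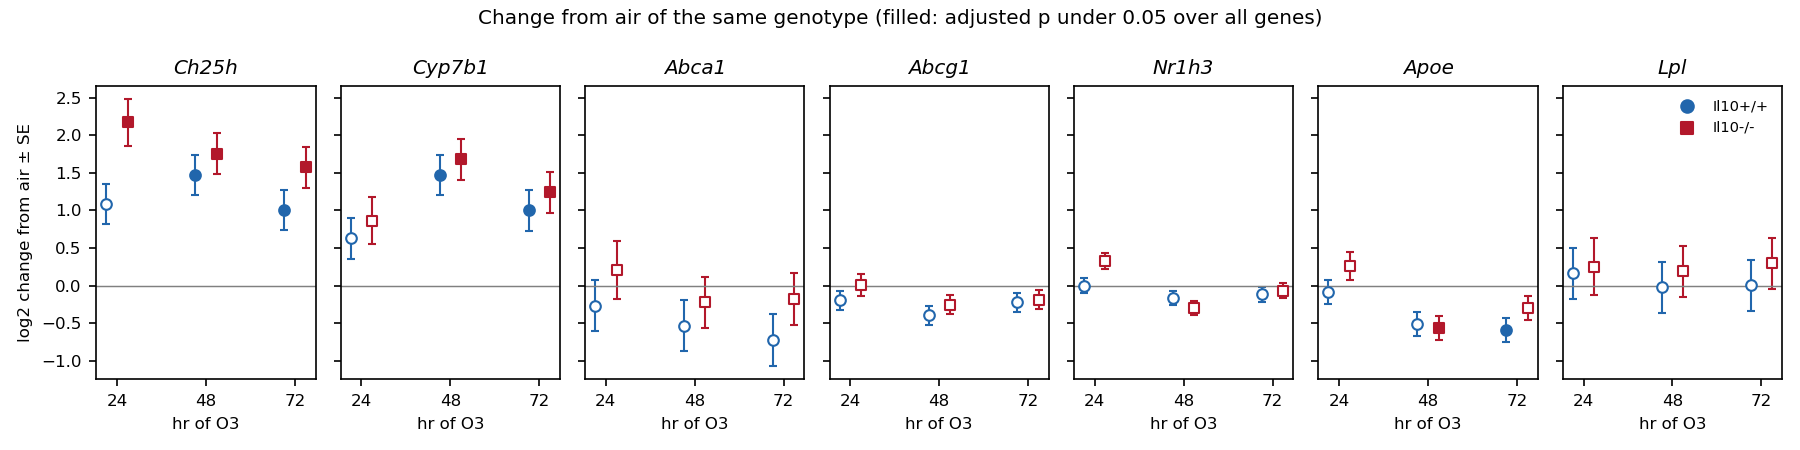
Log2 change from air of the same genotype (y axis) ± SE at 24, 48, and 72 hr of O3 (x axis) for 7 genes, on 1 common scale, with filled points where the adjusted p over all 12394 genes was under 0.05. Ch25h reaches 2.17 at 24 hr in Il10-/- mice against 1.09 in Il10+/+ mice, and the 5 other genes besides Ch25h and Cyp7b1 stay between -0.73 and 0.33.

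Nr1h3, which encodes the oxysterol receptor LXRα, moved little in Il10+/+ mice. Its values ran from 7.46 to 7.99 in Il10+/+ mice over air and O3, and all groups overlapped. The 4 Il10-/- air arrays read 8.03, 7.85, 7.87, and 7.86, and the 24 hr arrays read 8.22 and 8.24. Those 2 arrays lay above every other array of the 25, and the third of that group, left out, read 7.94. The 48 hr arrays read 7.52, 7.74, and 7.55, below every Il10-/- air array. Against air the changes in Il10-/- mice were 0.33 at 24 hr (SE 0.11, adjusted p = 0.12) and -0.30 at 48 hr (SE 0.10, adjusted p = 0.07), neither past the threshold. Between 24 and 48 hr of O3 Nr1h3 fell by 0.62 in Il10-/- mice (SE 0.11, adjusted p = 0.0043), a comparison that uses no air array, rests on 2 arrays at 24 hr, and called 1.32% of all genes lower.

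Neither cholesterol exporter was called in any comparison of the main model over the 25 arrays, though some other settings called both. Abca1, which loads cholesterol onto lipid-poor apolipoproteins, read 9.66, 9.87, 9.23, and 9.57 in Il10+/+ air and 8.97, 9.01, and 8.58 after 72 hr of O3. These groups did not overlap, and the difference was -0.73 (SE 0.34, adjusted p = 0.311). For Il10-/- mice air gave 9.07-9.27 and O3 gave 8.77-9.36 at 48 and 72 hr, with overlap. At 24 hr the 2 Il10-/- arrays read 8.11 and 10.69, the lowest and the highest values of Abca1 over the 25 arrays. Their mean was 0.21 above air (SE 0.39, adjusted p = 0.846), whereas without replicate 3 the change was -1.09 (adjusted p = 0.00274) and without replicate 1 it was 1.50 (adjusted p = 0.000388). Neither value was taken as the change of the group. The spread of this pair also enters the error of every other comparison, and without all Il10-/- O3 24 hr arrays, an alternative chosen after seeing the data, the Il10+/+ change of -0.73 at 72 hr had an adjusted p of 0.00695. Without replicate 1 or replicate 3 alone, Abca1 was called lower over the 3 times in Il10+/+ mice (log2 change -0.51, adjusted p = 0.0149), and without replicate 3 also in Il10-/- mice (-0.50, adjusted p = 0.0152).

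Abcg1, which passes cholesterol to HDL particles and is abundant in alveolar macrophages, read 9.64-10.02 in Il10+/+ air and 9.49, 9.47, and 9.32 after 48 hr of O3. The groups did not overlap, and the change of -0.39 (SE 0.13) had an adjusted p of 0.0957. With array weights that change was -0.32 and passed (adjusted p = 0.0186). With only the arrays compared, the Il10+/+ change over the 3 times passed (-0.27, adjusted p = 0.0432). By 72 hr the values were 9.56, 9.67, and 9.57 and overlapped air. The Il10-/- O3 arrays read 9.03-9.72 and the Il10-/- air arrays 9.42-9.82, and no change passed (adjusted p of 0.279 or more). Without Il10-/- O3 48 hr replicate 1, the 48 hr change was -0.44 in Il10-/- mice (adjusted p = 0.0293), and that of -0.39 in Il10+/+ mice passed as well (adjusted p = 0.0372).

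Apoe, an apolipoprotein that accepts exported cholesterol, averaged below air at 48 and 72 hr in both genotypes. In the main model it was called lower than air only at 72 hr in Il10+/+ and at 48 hr in Il10-/- mice. In Il10+/+ air it read 11.66, 11.90, 11.44, and 11.97, and after O3 11.55, 11.73, and 11.67 at 24 hr, 11.34, 11.29, and 11.04 at 48 hr, and 11.22, 11.14, and 11.07 at 72 hr. The 24 hr arrays lay within the range of air and the later arrays below it. The Il10-/- air arrays gave 11.63, 11.79, 11.73, and 11.32 and O3 gave 11.06, 10.86, and 11.24 at 48 hr and 11.32, 11.25, and 11.38 at 72 hr. At 24 hr its 2 arrays read 11.45 and 12.31.

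For Il10+/+ mice the change of Apoe was -0.52 at 48 hr (SE 0.16, adjusted p = 0.0837) and -0.60 at 72 hr (SE 0.16, adjusted p = 0.0443). The Il10-/- change was -0.56 at 48 hr (SE 0.16, adjusted p = 0.0383) and -0.30 at 72 hr (SE 0.16, adjusted p = 0.306). Over all genes, 0.686% were called lower at 72 hr in Il10+/+ and 2.29% at 48 hr in Il10-/- mice. Both calls were lost without the array labelled Il10-/- air 48 hr replicate 1 (adjusted p = 0.0518 and adjusted p = 0.102). The Il10+/+ call passed in 16 of 35 alternatives and the Il10-/- call in 28 of 36. Without Il10-/- O3 24 hr replicate 1 the Il10-/- change at 24 hr was 0.69 (adjusted p = 0.0286), and without replicate 3 that over the 3 times was -0.35 (adjusted p = 0.0349). Without either of them the 48 hr change in Il10+/+ mice passed (adjusted p = 0.0159). Apoe fell by 0.82 between 24 and 48 hr of O3 in Il10-/- mice (SE 0.19, adjusted p = 0.0206), the other of the 7 genes called there.

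Lpl, which releases fatty acids from circulating lipoproteins, was not called in any comparison with both Il10-/- 24 hr arrays. Its values were 10.85-11.34 in Il10+/+ air and 10.83-11.49 after O3. Among the Il10-/- arrays air gave 10.75-11.07, the 24 hr arrays read 9.99 and 12.30, and the later arrays 10.52-11.65. The changes from air lay between -0.02 and 0.30, with SEs of 0.34 to 0.39, and the 95% intervals reached from -0.73 to 1.05. The 2 Il10-/- arrays at 24 hr pointed in opposite directions. Without replicate 1 the change at that time was 1.41 and over the 3 times 0.63. Replicate 1 itself read 9.99, below every Il10-/- air array, and the array left out read lower still, at 8.75.

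Averaged over the 3 times, Ch25h was 1.19 higher than air in Il10+/+ (95% interval 0.74 to 1.63, adjusted p = 0.00195) and 1.83 higher in Il10-/- mice (95% interval 1.38 to 2.29, adjusted p = 1.82e-05). Cyp7b1 was 1.03 higher in Il10+/+ (adjusted p = 0.0063) and 1.26 higher in Il10-/- mice (adjusted p = 0.000819). With all 26 arrays the Il10+/+ changes of both genes did not pass (adjusted p = 0.0862 for each), and the Il10-/- changes did. These were the 2 of 7 genes called higher in both genotypes, where 2.74% of all genes were called higher in Il10+/+ and 5.27% in Il10-/- mice, and 0.92% and 2.28% were called lower. No member was called lower over the 3 times. The median change of the 7 genes was -0.09 in Il10+/+ and -0.01 in Il10-/- mice, beside -0.01 over all genes in both.

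The question of the design was whether the response depended on IL-10. Ch25h rose 1.09 more at 24 hr in Il10-/- than in Il10+/+ mice (SE 0.41, 95% interval 0.23 to 1.94), and this difference of responses did not pass (adjusted p = 0.586). Over the 3 times it rose 0.65 more (SE 0.31, unadjusted p = 0.046, adjusted p = 1). In air the level of Ch25h in Il10-/- minus Il10+/+ mice was -0.40 (SE 0.25, adjusted p = 0.799). At 24 hr of O3, where Il10-/- mice had 2 arrays, this difference of levels was 0.68 (SE 0.32, adjusted p = 0.395). For Cyp7b1 the mean responses differed by 0.23 (95% interval -0.41 to 0.86), and for the other 5 genes by 0.08 to 0.44, each with an interval that held 0. Of the 7 genes 0 were called between genotypes in air, over O3, or in the difference of the mean response by limma, with 0, 1, and 1 at an unadjusted p under 0.05. At that unadjusted threshold there were 866, 1481, and 504 of all 12394 genes. Over all genes 0.00807% were called in air, 0.637% over O3, and 0% for the difference of responses. The gene at an unadjusted p under 0.05 over O3 was Nr1h3, 0.20 higher in Il10-/- mice (SE 0.06, adjusted p = 0.146). At 24 hr of O3 Nr1h3 was 0.45 higher in Il10-/- mice (SE 0.11, adjusted p = 0.0761). Its 24 hr responses differed by 0.33 (95% interval 0.02 to 0.63, adjusted p = 0.672), and neither passed. Without Il10-/- O3 24 hr replicate 3, Cyp7b1 was called 0.52 higher over O3 in Il10-/- mice (adjusted p = 0.0167) and Abca1 was called lower (-0.37, adjusted p = 0.0481), whereas without replicate 1 Abca1 was called 0.49 higher (adjusted p = 0.0196).

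The study's two-way analysis of variance, run on the same values, gave p under 0.01 for exposure in Ch25h, Cyp7b1, Nr1h3, and Apoe, which was 4 of 7 genes beside 2011 of 12394. All 4 stayed under 0.01 after Benjamini-Hochberg adjustment, beside 809 of all genes. For genotype it gave 1 gene, Nr1h3, which did not stay under 0.01 after adjustment, beside 610 of all genes before and 25 after. For the interaction it gave 0 of these genes, beside 99 of all genes before and 0 after adjustment.

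Of 49 other genes of sterol traffic, grouped by role, 41 were measured. Over the 3 times of O3, 1 rose and 2 fell in Il10+/+ mice, and 2 rose and 1 fell in Il10-/- mice. Over all genes, 2.74% were called higher and 0.92% lower in Il10+/+, and 5.27% and 2.28% in Il10-/- mice. The median change of the list was -0.08 in Il10+/+ and -0.06 in Il10-/- mice.

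Of 7 measured enzymes of oxysterol synthesis and breakdown, 1 changed. Cyp27a1, the mitochondrial enzyme that makes 27-hydroxycholesterol, read 8.18-8.34 in Il10+/+ air, and after O3 7.57, 7.62, and 7.75 at 48 hr and 7.67, 7.46, and 7.54 at 72 hr. Il10-/- arrays read 7.94-8.24 in air and 7.33-7.62 at 48 and 72 hr. The 48 and 72 hr arrays lay below all air arrays of both genotypes. Over the 3 times it changed by -0.52 in Il10+/+ (SE 0.09, adjusted p = 0.00104) and by -0.46 in Il10-/- mice (SE 0.09, adjusted p = 0.00235). It fell by 0.62 at 48 hr in both genotypes, by 0.71 at 72 hr in Il10+/+ mice, and by 0.61 at 72 hr in Il10-/- mice, and the difference between genotypes in the mean response was 0.06 (95% interval -0.20 to 0.32). This call passed in 35 of 36 alternatives in each genotype and was lost with all 26 arrays (adjusted p = 0.0814 in Il10+/+ and 0.103 in Il10-/- mice). Beside these counts, 1% of all genes were called lower at 48 hr in Il10+/+ mice and 1.62% at 72 hr in Il10-/- mice.

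Of 6 measured genes of intracellular cholesterol handling, Npc2, the lysosomal protein that hands cholesterol on from endocytosed lipoproteins, rose. It read 12.83-13.05 in Il10+/+ air and 13.22-13.48 at 48 and 72 hr, and 12.91-13.06 in Il10-/- air and 13.24-13.51 at those times, without overlap. Over the 3 times the change was 0.33 in Il10+/+ (SE 0.07, adjusted p = 0.00553) and 0.33 in Il10-/- mice (SE 0.07, adjusted p = 0.0048). It too was lost with all 26 arrays (adjusted p = 0.752 and adjusted p = 0.817), as the array left out read 11.27.

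Of 15 measured LXR targets and efflux genes, Apoc2, an apolipoprotein that activates lipoprotein lipase, fell by 0.43 in Il10+/+ mice (SE 0.12, adjusted p = 0.0409) and changed by 0.06 in Il10-/- mice (adjusted p = 0.839). Its values were low, with group means of 5.07 in Il10+/+ air, 4.64 to 4.66 in Il10+/+ mice after O3, and 4.64 in Il10-/- air. Whether they lay above background was not tested. The difference of the responses was 0.48 (SE 0.17, adjusted p = 1), and the Il10+/+ call passed in 20 of 35 alternatives. Lpcat3, which places polyunsaturated fatty acids into phospholipids, rose by 0.35 in Il10-/- mice (SE 0.10, adjusted p = 0.0383) and changed by 0.13 in Il10+/+ mice (adjusted p = 0.577). Without the array labelled Il10-/- air 48 hr replicate 1, Lpcat3 no longer passed (adjusted p = 0.077). Srebf1, Mylip, Abcg5, Abcg8, and the other genes of this group were not called over the 3 times, nor were any of 3 sensors and receptors, 3 HDL genes, or 7 genes of lipase partners and lipid uptake.

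**Figure D3:**
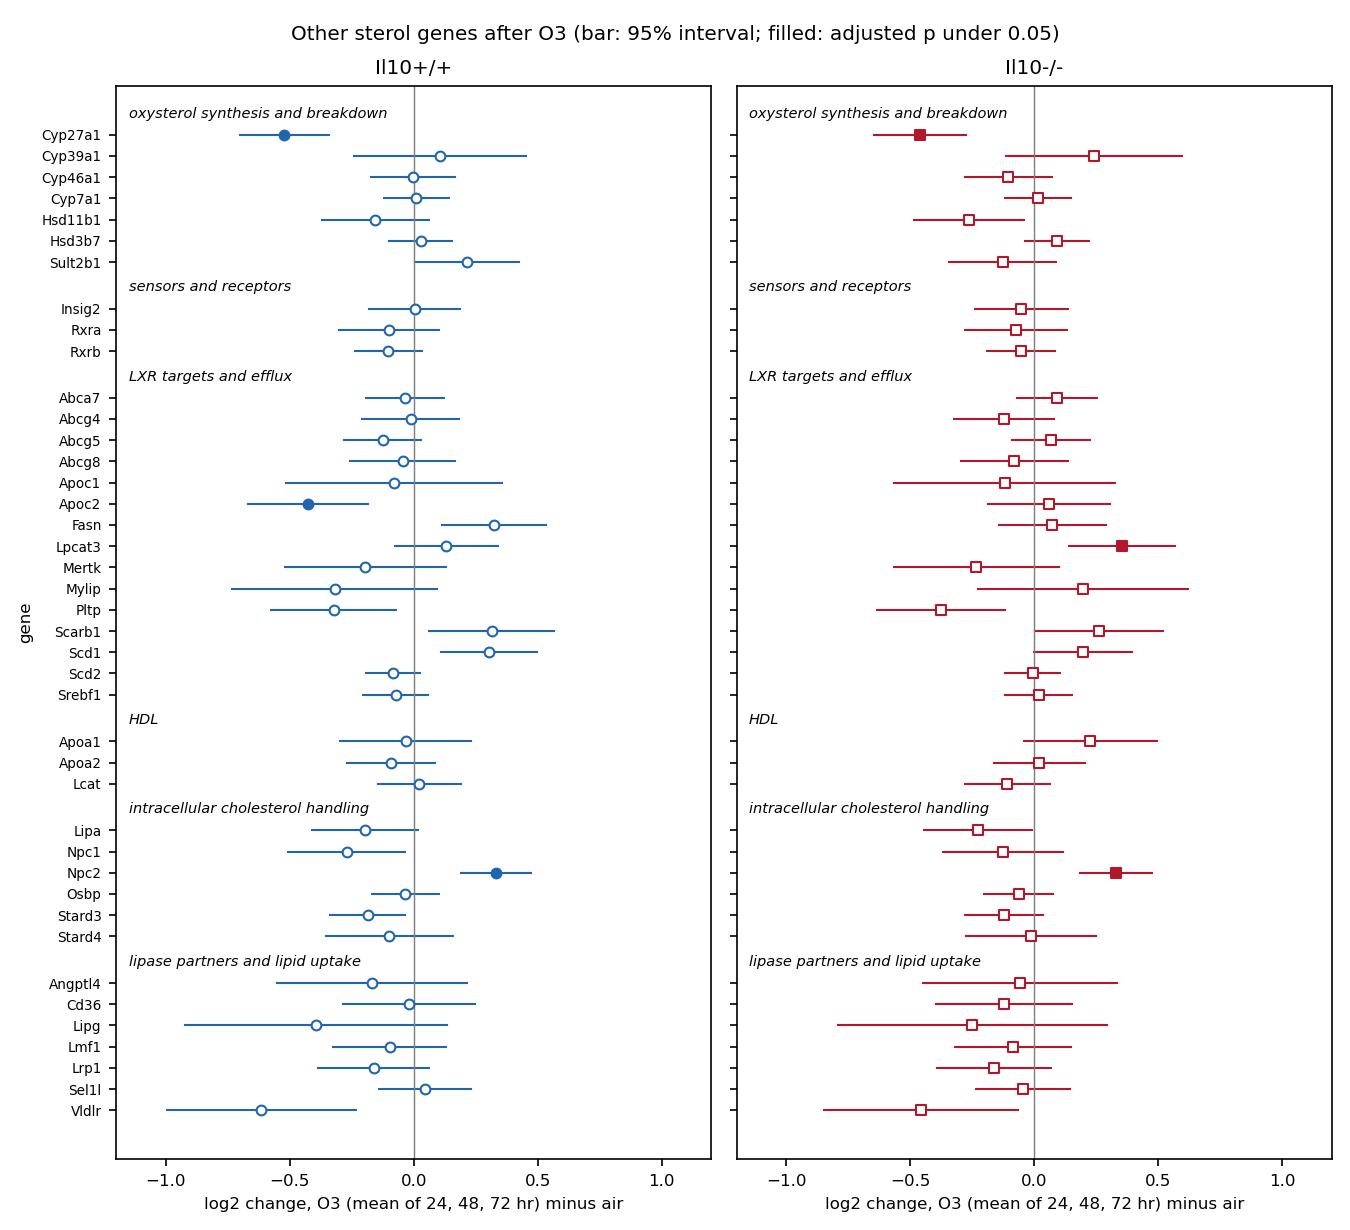
Log2 change of 41 other sterol genes over the 3 times of O3 against air (x axis, with 95% interval), by role, in Il10+/+ (left) and Il10-/- mice (right), with filled points where the adjusted p was under 0.05. Cyp27a1 lies at -0.52 and -0.46 and Npc2 at 0.33 in both panels, while most intervals cross 0.

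At single times a few further genes of the list were called, and they were named after their values were seen. At 24 hr in Il10-/- mice, Scarb1, the HDL receptor, rose by 0.73 (adjusted p = 0.0282) and Angptl4, an inhibitor of lipoprotein lipase, by 1.07 (adjusted p = 0.0353), where 1.32% of all genes were called higher. No gene of the list was called lower there, beside 0.766% of all genes. Scarb1 no longer passed without replicate 3 at that time (adjusted p = 0.147), and Angptl4 not without replicate 1 (adjusted p = 0.0666). At 72 hr Angptl4 changed by -0.89 in Il10-/- mice (adjusted p = 0.0265), and Scd1, a desaturase that LXR induces, rose by 0.43 in Il10+/+ (adjusted p = 0.048) and by 0.40 in Il10-/- mice (adjusted p = 0.0457). Pltp, which moves phospholipid between lipoproteins, changed by -0.52 at 48 hr in Il10-/- mice (adjusted p = 0.045). None of the calls of Angptl4, Scd1, and Pltp at 48 and 72 hr passed without the array labelled Il10-/- air 48 hr replicate 1 (adjusted p of 0.0571 to 0.103), and with all 26 arrays none of the single-time calls of Scarb1, Angptl4, Scd1, and Pltp did. No gene of the list was called at 24 hr in Il10+/+ mice, when 0.0484% of all genes were called higher and 0% lower.

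In RNA of a whole tissue piece such as the left lung, fewer cells of a type and less RNA per cell cannot be told apart, so marker lists of lung cell types are given beside these changes. The mean of 8 endothelial markers went from 10.92 in Il10+/+ air to 10.67 at 48 hr and 10.66 at 72 hr, and from 10.91 in Il10-/- air to 10.46 and 10.52. Of the 8 markers 1 was called lower at 48 hr in Il10+/+ mice, and 3 and 2 at 48 and 72 hr in Il10-/- mice. Of all genes 1%, 2.29%, and 1.62% were called lower in these comparisons. The mean of 8 alveolar macrophage markers went from 8.85 to 8.94, 8.98, and 9.15 in Il10+/+ mice and from 8.78 to 8.98, 8.97, and 8.99 in Il10-/- mice, with 1 marker called higher and 1 lower, at 72 hr in Il10-/- mice.

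The 8 neutrophil markers averaged 6.95 in Il10-/- air and 7.84, 7.31, and 7.44 after O3, against 7.22 in Il10+/+ air and 6.88, 6.79, and 6.81 after O3. Of the list 1 marker was called higher at 24 hr and 1 at 72 hr in Il10-/- mice, beside 1.32% and 4.25% of all genes. The 9 markers of monocytes and interstitial macrophages averaged 7.76 in Il10-/- air and 8.19 at 72 hr, with 1 called higher. In Il10+/+ mice their group means ran from 7.73 to 7.89. The mean of 8 fibroblast markers was 10.84 in Il10-/- air and 10.15 at 24 hr, where the 2 arrays lay apart at 9.68 and 10.62 and no marker was called. In Il10+/+ mice it was 10.95 in air and 10.67 at 24 hr. The mean of 5 adipocyte markers, a sign of adhering fat, was 4.95 to 5.50 over the groups but 4.60 to 6.54 over single arrays. Adipoq alone ran from 3.80 to 8.66, so the arrays were not even in this sign. Of these markers 1 was called lower at 48 hr in Il10-/- mice, beside 2.29% of all genes. The group means of 6 alveolar type 2 markers ran from 12.94 to 13.05, of 3 club cell markers from 13.70 to 13.80, of 5 B cell markers from 6.18 to 7.64, and of 5 T cell markers from 6.14 to 6.51. The part of these cells in the changes of Ch25h, Cyp7b1, Apoe, and Cyp27a1 was not tested.

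**Figure D4:**
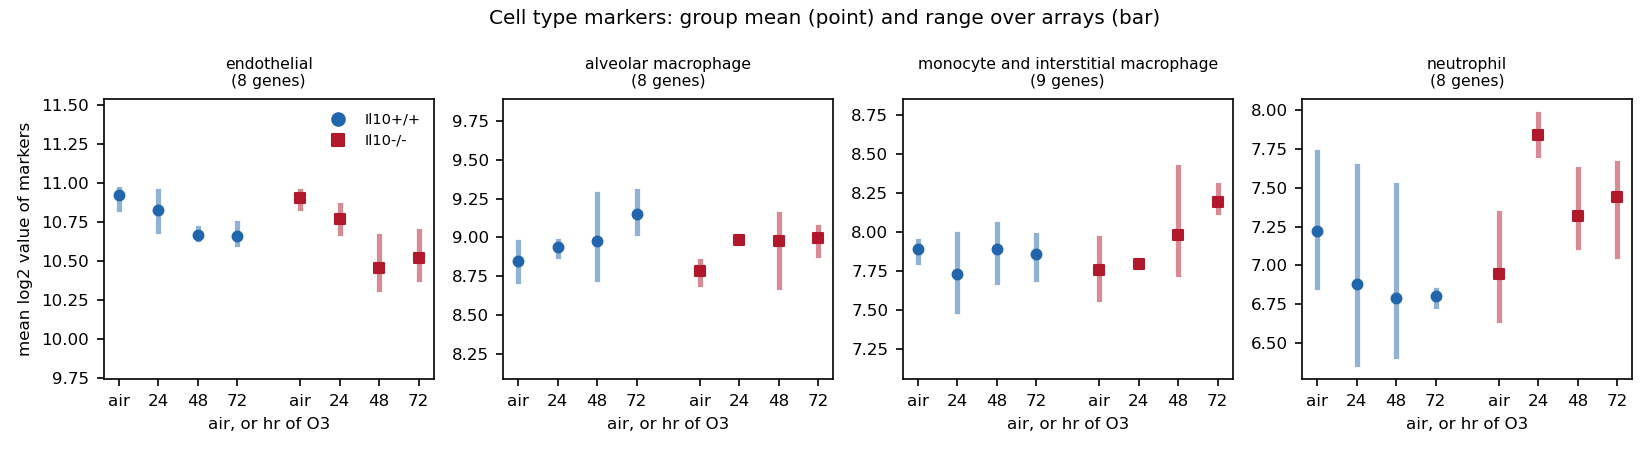
Mean log2 value of the measured markers of 4 cell types (y axis) in air and after 24, 48, and 72 hr of O3, as group mean (point) and range over arrays (bar), each panel spanning 1.8 log2 units. Endothelial markers go from 10.92 in air to 10.66 at 72 hr in Il10+/+ mice, and neutrophil markers reach 7.84 at 24 hr in Il10-/- mice.

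The genes whose pattern over the 25 arrays was most like each of the 7 are given by Pearson r, as a description without a test, since the arrays share their exposure groups. For Ch25h they were F3, which encodes tissue factor (r = 0.936), the chemokine Ccl17 (0.926), the mitochondrial superoxide dismutase Sod2 (0.921), Rab20 (0.917), and the thioredoxin reductase Txnrd1 (0.911). For Cyp7b1 they were Timp1, an inhibitor of matrix metalloproteinases (0.956), the glycolytic enzyme Pgk1 (0.947), and Ppa1 (0.943). Abca1 was most like Trp53inp1 (0.856), Ces1d (0.844), and the lipoprotein receptor Vldlr (0.841). Abcg1 was most like Jarid2 (0.837), Nr1h3 like Ifi35 (0.818), Apoe like Gstm1 (0.862), and Lpl like Man2a1 (0.821). Of the 7 genes none was among the genes most like another.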

How the data were processed

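RNA of the left lung was hybridized to Affymetrix mouse gene expression arrays, 26 in all. The deposited table holds log2 values that the authors made with the robust multiarray average (RMA), which corrects background, normalizes by quantiles, and summarizes each probe set. Quantile normalization gives all arrays like distributions, so changes are relative to the whole array. Of 22690 probe sets, 20393 carried 1 symbol in GEO's platform annotation, 691 several, and 1606 none. For each of 12394 genes the probe set with the highest mean was kept.

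One linear model with a mean for each of 8 groups (4 air arrays per genotype, both air times together) was fitted to all genes on 25 arrays (limma 3.58.1, R 4.3.3), with Benjamini-Hochberg adjustment over all genes and a threshold of 0.05. The number of arrays limits precision. The step was tested on simulated data. The 7 genes, the other sterol genes, and the marker lists were chosen with earlier results of these data known. Of the sterol list, the 4 largest changes in each direction among those called over O3 are named, and the 5 genes most like Ch25h and 3 most like each other gene were found by Pearson r. Figures were drawn with matplotlib 3.10.9. Alternatives were all 26 arrays, air of the same time, a replicate block, array weights, a fit to only the arrays compared, a covariate for the letter c at the end of some source names, no low genes, median centring, other uses of probe sets, each array left out in turn, and, chosen after seeing the data, no Il10-/- O3 24 hr arrays.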

Additional observations from a re-analysis of the deposited data

Results flagged for a closer look

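Nr1h3 read 8.03 on Il10-/- air 24 hr replicate 1, apart from the other 3 air arrays of that genotype, which read 7.85 to 7.87. It was 1 of 14 groups of 4 arrays examined in this way, and chance sets about 1 group in 20 apart.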

How the results depend on the processing

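Of 2716 single values recomputed for the 7 genes, 2518 kept their direction and their side of the threshold, and 73 changed sign without being called either way. The changes of sign that were called both concerned Abca1 without Il10-/- O3 24 hr replicate 3, where the change at 24 hr in Il10-/- mice was -1.09 and the genotype difference over O3 was -0.37 (adjusted p = 0.0481), beside 0.21 and 0.06 with it. Without replicate 1 these were 1.50 and 0.49. At 72 hr in Il10+/+ mice, Ch25h passed in 16 of 35 alternatives, Cyp7b1 in 11, and Apoe in 16, where adjusted p ran up to 0.41, 0.304, and 0.216. The cause was not tested. Signal over background is not part of the deposited table and limits what can be said of low values.

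Counts of the 7 genes called moved as follows, together with those of all genes. At 48 hr in Il10+/+ mice, 460 of all genes were called, against 6 with all 26 arrays and 2058 with array weights, and at 24 hr in Il10-/- mice 259, against 0 with array weights and 0 with only the arrays compared. Over the 3 times 454 were called in Il10+/+ mice, against 21 with all 26 arrays, 878 with only the arrays compared, 1628 with array weights, and 1244 without all Il10-/- O3 24 hr arrays. With all 26 arrays, 0 of the 7 genes were called in Il10+/+ mice at 48 hr, at 72 hr, and over the 3 times, and 0 in Il10-/- mice at 72 hr, and of the other sterol genes 0 in either genotype. With only the arrays compared, 1 was called at 24 hr in Il10+/+, 0 at 24 hr in Il10-/-, and 5 over the 3 times in Il10+/+ mice, with 7 other sterol genes. With array weights the counts were 1 at 24 hr in Il10+/+, 0 at 24 hr in Il10-/-, 5 at 48 hr in Il10+/+, and 4 over the 3 times in Il10+/+ mice, with 7 other sterol genes. Without all 3 Il10-/- O3 24 hr arrays they were 4 at 48 hr and 4 over the 3 times in Il10+/+ mice, and the other sterol genes were 7 in Il10+/+ and 9 in Il10-/- mice. With the letter c as a covariate 0 were called at 72 hr in Il10+/+ mice, with 5 other sterol genes in Il10-/- mice. Averaging the probe sets of a gene gave 5 other sterol genes in Il10-/- mice, and each probe set on its own gave 0 of the 7 genes at 72 hr in Il10+/+ mice.

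Leaving out 1 array at a time gave 0 to 0 genes called at 24 hr, 2 to 4 at 48 hr, 0 to 4 at 72 hr, and 2 to 4 over the 3 times in Il10+/+ mice, and 1 to 4, 2 to 3, 1 to 2, and 2 to 4 in Il10-/- mice. Between genotypes it gave 0 to 0 in air, 0 to 2 over O3, and 0 to 0 for the difference of responses. Of the other sterol genes 2 to 6 were called in Il10+/+ and 2 to 8 in Il10-/- mice. The 72 hr count in Il10+/+ mice moved in 18 of 25 such fits. The counts of Il10+/+ mice at 48 hr and over the 3 times moved without Il10-/- O3 24 hr replicate 1 or 3, and the Il10-/- count at 72 hr without replicate 3 of that time.

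A replicate block gave 2 genes called at 72 hr in Il10+/+ mice and 4 other sterol genes in Il10-/- mice, beside 3 and 3 without it, and changed no other of these counts. Deviations from group means correlated by 0.11 on average over 92 pairs of same-numbered arrays (from -0.32 to 0.46, 45 over 0.1) and by -0.06 over 180 pairs of different number (30 over 0.1). The average was thus higher for same-numbered pairs. The rule for pairing arrays by number was that every same-numbered pair be over 0.1, which was not met. The main model therefore did not pair the arrays. A rule on every pair does not address a weaker likeness of same-numbered arrays, and its source was not tested.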
